A study of Arabidopsis thaliana with 18 samples.

Results

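RNA-seq of whole Arabidopsis seedlings labelled hec1hec2 was compared with that of wild-type Col-0 after warm treatment at 28°C, across all genes with enough counts. The comparison is defined by genotype and temperature, and it was chosen with earlier results of these data known. It takes 6 of the 18 libraries of the series, 3 biological replicates for each genotype. Of the 33655 genes in the deposited count table it takes 17828. By the sample labels, seedlings of both genotypes were plated on MS medium without sucrose, grown in white light at 22°C for 5 days, and then given 24 hours of continuous white light at 28°C. Both genotypes are in the Col-0 background, hec1hec2 is named as a double mutant of HEC1 and HEC2, and the mutant alleles are not given in the sources used here. The same genotypes kept at 22°C for those 24 hours gave 6 further libraries, which share no sample with the 28°C comparison. Sequencing was by 3′ Tag-Seq, which reads the 3′ end of each transcript, so that a transcript gives about the same number of tags whatever its length.

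HEC1, HEC2 and HEC3 belong to the HECATE family of basic helix-loop-helix (bHLH) transcription factors, known from the development of the reproductive tract of the flower and from light signalling. HEC proteins bind to the PHYTOCHROME INTERACTING FACTORS (PIFs), bHLH activators of growth genes that drive thermomorphogenesis, the lengthening of hypocotyls and petioles in warmth. Seedlings also express genes of defence chemistry. Aliphatic glucosinolates, sulfur-rich compounds made from methionine, are built by chain elongation in the plastid, formation of the core structure and modification of the side chain, and the MYB factors MYB28, MYB29 and MYB76 are known to control these steps.

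Library totals at 28°C lay between 3631558 and 4763859 counts in Col-0 and between 4380045 and 4536756 in the labelled hec1hec2 libraries, and 3 counts, taken as the floor of detection, were at most 8.26e-05% of a library, which covers counting error only. Each gene was put to edgeR's quasi-likelihood test, in a model of the 4 groups over 12 libraries. A gene is said to be called, or to have risen or fallen in the labelled libraries, where it differed 2-fold or more with an adjusted p (Benjamini-Hochberg, FDR) no higher than 0.05. Each log2 fold change is that of the labelled hec1hec2 libraries over Col-0 with its standard error (SE), from 3 libraries a genotype. At 28°C 239 genes were called, 1.34% of those tested, of which 198 rose (1.11%) and 41 fell (0.23%). The FDR alone was passed by 782 genes (4.39%), 478 higher (2.68%) and 304 lower (1.71%). The median log2 fold change of all tested genes was -0.01.

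Most changes were moderate. The median size of the log2 fold change was 1.45 among genes that rose and 1.46 among genes that fell, and a 4-fold change was reached by 36 and 6 genes. The 3 libraries of each genotype did not overlap in level (CPM, counts scaled to library size) for 194 of the 198 genes that rose and 40 of the 41 that fell, which the call itself nearly requires, and for 20.7% of all tested genes. The libraries did not contribute evenly. Among the 198 genes that rose, Col-0 replicate 3 was the lowest Col-0 library for 127, and labelled hec1hec2 replicate 2 the highest of its group for 126. Without Col-0 replicate 3, 136 genes were called, and 120 of them were among the 239. Without labelled hec1hec2 replicate 2 there were 169 calls, 149 of them shared, and without both libraries, a setting added after these values were seen, 84 calls with 71 shared. What sets these libraries apart was not tested.

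The genes named in the mutant's label came first. At 28°C the counts of HEC1 (AT5G67060, on chromosome 5) were 39, 47 and 68 for Col-0 and 2691, 3271 and 2818 for the labelled hec1hec2 libraries. Every labelled library was far above every Col-0 library, which goes against the label if the mutation removes the transcript. HEC1 rose by a log2 fold change of 5.75 (SE 0.16, FDR = 5.41e-22, edgeR's quasi-likelihood test), which was the largest increase of any called gene, and the difference was much the same at 22°C, where it was 6.02 (SE 0.16). A tag from the 3′ end does not show whether the transcript is complete or can be translated, so the samples are called libraries labelled hec1hec2 here. HEC2 (AT3G50330, chromosome 3) had 5, 8 and 7 counts in Col-0 and 6, 2 and 4 in the labelled libraries, so that the groups overlapped and the gene had too few counts to be tested. At 22°C the HEC2 counts of Col-0 were 3, 14 and 10, and each labelled library had 0. HEC3 (AT5G09750) had 1 to 3 counts in every library at 28°C.

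**Figure D1:**
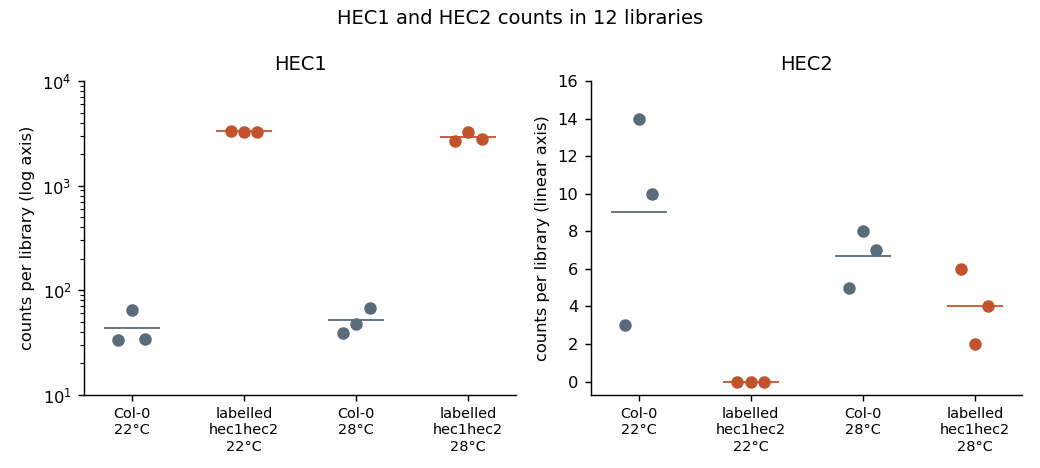
Counts of HEC1 (left, log axis) and HEC2 (right, linear axis) in each of 12 libraries by genotype and temperature, with a line at each group's mean. At 28°C HEC1 spans 39 to 68 counts in Col-0 and 2691 to 3271 in the libraries labelled hec1hec2, and HEC2 overlaps between the genotypes at 28°C.

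Genes near HEC1 and HEC2 were examined for a shared change. Among 54 tested genes within 50 places of HEC1 in the order of loci, 1 was called, RHS19, 45 places away, and none of the 8 tested genes within 10 places. Around HEC2, 1 of 47 tested genes was called, the peroxidase gene AT3G49960, 43 places away, and again none of 8 within 10 places. The FDR alone was passed within 10 places by ABA1 (-0.34) and AT5G67150 (0.75) near HEC1 and by AT3G50300 (0.92) and AT3G50400 (0.86) near HEC2, that is by 2 of 8 genes at each. Over all tested genes 1.34% were called and 4.39% passed the FDR. Called genes were spread over the chromosomes, at 1.13%, 1.32%, 1.24%, 1.66% and 1.46% of the tested genes of chromosomes 1 to 5. The 250 bases upstream of the annotated start of HEC1 are shown because no other gene differed more, with the only E-box match of the searched kinds, CACATG read on the other strand, in capitals (5′ to 3′ on the gene's own strand, RefSeq TAIR10.1, chromosome 5, plus strand).
HEC1: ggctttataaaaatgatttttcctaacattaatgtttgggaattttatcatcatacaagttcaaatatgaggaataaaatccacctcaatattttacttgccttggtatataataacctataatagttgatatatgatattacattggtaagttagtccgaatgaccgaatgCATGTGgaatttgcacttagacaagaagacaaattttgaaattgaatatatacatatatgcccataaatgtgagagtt

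The group with the largest changes after HEC1 was aliphatic glucosinolate biosynthesis. Its genes were listed with earlier results of these data known, so the counts are descriptions. Of 29 listed genes 27 were tested, and in all 27 the estimate was higher in the labelled hec1hec2 libraries. Of these 15 were called higher and 22 passed the FDR, against 1.11% and 2.68% of all tested genes. For each of the 15 called genes the genotypes did not overlap, which the call itself nearly requires and which held for 20.7% of all tested genes. The estimate was larger at 28°C than at 22°C in 23 of the 27 tested genes, and 12 of the 15 called genes, which were picked at 28°C, were called at 22°C too. How reads that match several genes were counted is not given in the sources used here, and counts of near-identical neighbours such as CYP79F1 and CYP79F2, or MAM1 and MAM3, are uncertain.

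Chain elongation of methionine was changed along its whole length. Of 10 listed genes, all tested, 7 were called higher and 9 passed the FDR, with a median log2 fold change of 2.62 (1.34 at 22°C). BCAT4, the aminotransferase that starts the cycle, had 12, 3 and 0 counts in Col-0 and 23, 38 and 44 in the labelled libraries, and rose by 2.70 (SE 0.49), a value that was 4.32 without Col-0 replicate 1 and 2.05 without Col-0 replicate 3. BAT5, the transporter that carries the oxo acid into the plastid, had 5, 1 and 3 counts in Col-0 and 35, 34 and 36 in the labelled libraries. That difference was 3.42 (SE 0.43, FDR = 4.73e-06), with Col-0 counts near the floor. MAM1, the synthase of the condensation step, had 44, 43 and 11 counts in Col-0 and 186, 254 and 258 in the labelled libraries, and rose by 2.73 (SE 0.29, FDR = 3.62e-07). Its neighbour MAM3 was much lower, with 6, 2 and 2 against 12, 13 and 17 counts. It rose by 1.95 (SE 0.56, FDR = 0.0375), a call lost when any of 5 of the 6 libraries was left out.

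The isomerase and dehydrogenase steps moved in the same direction. IPMI1, a small subunit of isopropylmalate isomerase, had 8, 7 and 4 counts in Col-0 and 72, 56 and 85 in the labelled libraries. All labelled libraries were several-fold above all Col-0 libraries, and the log2 fold change was 3.38 (SE 0.31, FDR = 2.72e-08). IPMI2, another small subunit, went from 38, 33 and 12 counts to 139, 212 and 181 (2.58, SE 0.25, FDR = 4.87e-08). IMD1, the dehydrogenase that completes the cycle, went from 35, 47 and 12 counts to 169, 212 and 257 (2.66, SE 0.26, FDR = 4.93e-08). The genes with a part in leucine or branched-chain amino acid metabolism moved less. BCAT3 and the large subunit gene IPMI LSU1 passed the FDR at 0.54 (SE 0.12) and 0.41 (SE 0.10), and IMD3 had 0.10 (FDR = 0.747).

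Of the genes for the core structure and the side chain, 17 of 19 were tested, 8 were called higher and 13 passed the FDR, with a median of 0.99 (0.81 at 22°C). CYP79F1, which turns the elongated amino acid into an aldoxime, had 9, 13 and 0 counts in Col-0 and 69, 89 and 95 in the labelled libraries, and rose by 3.41 (SE 0.39, FDR = 9.76e-07). CYP83A1, which oxidises the aldoxime, had 58, 27 and 9 counts in Col-0 and 220, 228 and 230 in the labelled libraries (2.76, SE 0.30, FDR = 3.78e-07). The labelled libraries were nearly equal in CYP83A1 whereas Col-0 varied several-fold, with replicate 3 lowest. The glutathione transferase gene GSTU20 had the most counts of the called genes of the pathway, 218, 199 and 211 against 608, 726 and 820, and the smallest FDR (1.69, SE 0.11, FDR = 1.14e-11). GSTF11, CYP79F2, the S-oxygenase genes FMOGS-OX1 and FMOGS-OX3 and the sulfotransferase gene SOT17 rose by between 1.46 and 2.66. The rest of the list moved less. GGP1, SOT18, SUR1 and UGT74B1 passed the FDR at 0.99, 0.84, 0.81 and 0.64 without reaching 2-fold.

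**Figure D2:**
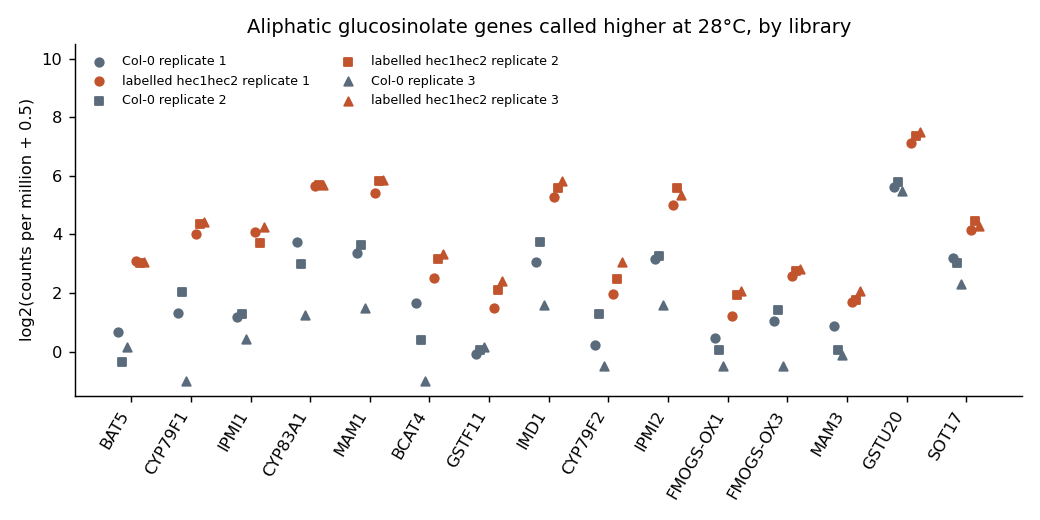
Level of the 15 aliphatic glucosinolate genes called higher at 28°C in each library, as log2 of CPM plus 0.5, in order of fold change, with colour for genotype and symbol for replicate. In each gene the labelled hec1hec2 libraries lie above the Col-0 libraries, which the call nearly requires, and Col-0 replicate 3 is the lowest of the Col-0 libraries in 13 of the 15.

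Col-0 replicate 3 carried part of these differences. It was the lowest Col-0 library for 13 of the 15 called genes, and labelled hec1hec2 replicate 3 was the highest of its group for 11. Without Col-0 replicate 3, 6 chain elongation genes and 7 core and side-chain genes were still called, at medians of 2.1 and 0.95. The summed level of the chain elongation list was 181, 190 and 151 CPM in Col-0 and 325, 388 and 395 CPM in the labelled libraries, so that the groups stayed apart with Col-0 replicates 1 and 2 alone. At 22°C the sums were 371, 308 and 362 CPM in Col-0 and 618, 504 and 541 CPM in the labelled libraries. Col-0 was thus lower at 28°C than at 22°C in this list. In whole seedlings, fewer cells that express a gene and less RNA of it per cell cannot be told apart.

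MYB29, a transcriptional activator of aliphatic glucosinolate genes, had 2, 2 and 1 counts in Col-0 and 11, 16 and 14 in the labelled libraries. The groups did not overlap and MYB29 rose by 2.87 (SE 0.53, FDR = 0.000938), on few counts. MYB28, with 56, 40 and 44 against 67, 63 and 73 counts, had an estimate of 0.45 (SE 0.18, FDR = 0.184). MYB76 had 0, 0 and 1 counts in Col-0 and 1, 5 and 4 in the labelled libraries and was not tested. Of the 7 tested MYB and MYC regulators MYB29 alone passed the FDR, and MYB34, MYB51, MYC2, MYC3 and MYC4 had estimates between -0.26 and 0.17.

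Indolic glucosinolate genes, whose products are made from tryptophan, changed less. None of the 10 tested was called at 28°C by edgeR or DESeq2, and the median was 0.41 (0.42 at 22°C). An unadjusted p below 0.05 was reached by 8, but the share of all tested genes below it was not counted. The FDR was passed by 4, all higher, against 2.68% of all tested genes. The 4 were GSTF9 (0.89), CYP81F4 (0.61), GSTF10 (0.50) and SOT16 (0.44). The summed level of the whole indolic list was 605 to 754 CPM in Col-0 and 1043 to 1256 CPM in the labelled libraries. Among 12 tested genes of glucosinolate breakdown and transport none was called, and NSP5, a nitrile specifier protein, passed the FDR at -0.38 with overlapping groups. In sulfate assimilation, which supplies the sulfate donor for the last core step, 1 of 21 tested genes was called, at a list median of 0.256. At 22°C the median was 0.689 and 7 were called, all higher. The gene called at 28°C was APK2, a kinase that makes the donor PAPS, with 103, 54 and 69 counts in Col-0 and 193, 194 and 213 in the labelled libraries (1.33, SE 0.17, FDR = 5.98e-06). APR1 (0.96), LSU2 (0.73), APK1 (0.69) and ATPS1 (0.43) passed the FDR higher, and BGLU30 (-0.73) lower. AK3, an aspartate kinase of the branch that leads to methionine and one of the 10 largest increases among called genes averaging at least 20 counts in the higher group, had 5, 1 and 1 counts in Col-0 and 19, 15 and 33 in the labelled libraries (3.12, SE 0.56, FDR = 0.000661).

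Because HEC and PIF proteins are bHLH factors, the promoters of called genes were searched for CACGTG, the G-box, and for CACATG, on either strand, from 250 bases before to 50 after the annotated start. Of all 17823 tested genes with a window, 9.08% held CACGTG and 12.8% CACATG. The shares among the 198 genes that rose were 10.6% (21 genes) and 14.1% (28 genes), and among the 41 that fell 7.32% (3 genes) and 12.2% (5 genes), near those of all genes. Of the 15 aliphatic glucosinolate genes that rose, 3 held CACGTG and 1 held CACATG. The 250 upstream bases of an example of each are given with the match in capitals, since these 2 genes hold the examples (RefSeq TAIR10.1, 5′ to 3′ on the gene's strand, which is the minus strand for both, of chromosome 4 for CYP83A1 and chromosome 1 for FMOGS-OX1). A match describes letters in a window and not a bound site.
CYP83A1: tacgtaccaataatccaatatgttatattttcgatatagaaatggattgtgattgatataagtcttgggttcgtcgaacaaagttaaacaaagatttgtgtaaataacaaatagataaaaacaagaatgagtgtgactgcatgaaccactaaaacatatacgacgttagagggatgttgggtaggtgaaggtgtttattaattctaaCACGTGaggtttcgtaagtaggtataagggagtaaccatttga
FMOGS-OX1: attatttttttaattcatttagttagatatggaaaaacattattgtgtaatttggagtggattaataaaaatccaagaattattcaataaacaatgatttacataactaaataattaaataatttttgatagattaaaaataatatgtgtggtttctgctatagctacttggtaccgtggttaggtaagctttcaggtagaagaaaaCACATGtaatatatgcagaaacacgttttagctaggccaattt

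No tested gene was called among the PIF, auxin and elongation growth genes, against 1.34% of all tested genes. All 7 PIF genes were tested, and at 28°C none passed the FDR of edgeR or of DESeq2, or an unadjusted p of 0.05. PIF4, the main driver of thermomorphogenesis, had 374, 281 and 403 counts in Col-0 and 388, 321 and 439 in the labelled libraries. The groups overlapped, at a log2 fold change of 0.04 (SE 0.11, FDR = 0.895, edgeR's quasi-likelihood test). PIF4 at 22°C was lower in the labelled libraries by the FDR alone (-0.62, SE 0.17, FDR = 0.0356), and the difference between the temperatures did not pass its own test (0.67, SE 0.21, FDR = 0.277). PIF1, PIF3, PIF5 and PIF7 had estimates of -0.20, -0.13, -0.17 and -0.08 with SEs of 0.11 to 0.20.

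IAA29, an auxin-responsive repressor gene that PIF4 activates, had 40, 44 and 33 counts in Col-0 and 69, 59 and 62 in the labelled libraries. The libraries did not overlap, yet the estimate of 0.61 (SE 0.23) had an FDR of 0.144. YUC8, an auxin synthesis gene and PIF4 target, had an estimate of -0.40 (SE 0.23, FDR = 0.391), PHYB, the phytochrome that senses light and warmth, -0.17 (SE 0.21, FDR = 0.743), and HFR1, an atypical HLH inhibitor of PIFs, 0.35 (SE 0.18, FDR = 0.344). PIL1, with 2 to 13 counts a library, was not tested. Of 23 tested auxin genes the efflux carrier gene PIN3 alone passed the FDR (-0.34, FDR = 0.0484). Of 16 elongation growth genes XTH17, for a cell wall enzyme, passed it higher (0.80, FDR = 0.0298, overlapping groups) and CPD, for brassinosteroid synthesis, lower (-0.31, FDR = 0.0367). None of the 17 tested photoreceptor and light signalling genes passed it with edgeR or DESeq2, although 16 had a negative estimate, at a median of -0.22. An unadjusted p below 0.05 was found for 4 of them, with no share over all tested genes counted. The HEC partner SPATULA (SPT) had 61, 36 and 57 against 42, 25 and 35 counts (-0.66, SE 0.22, FDR = 0.0873).

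**Figure D3:**
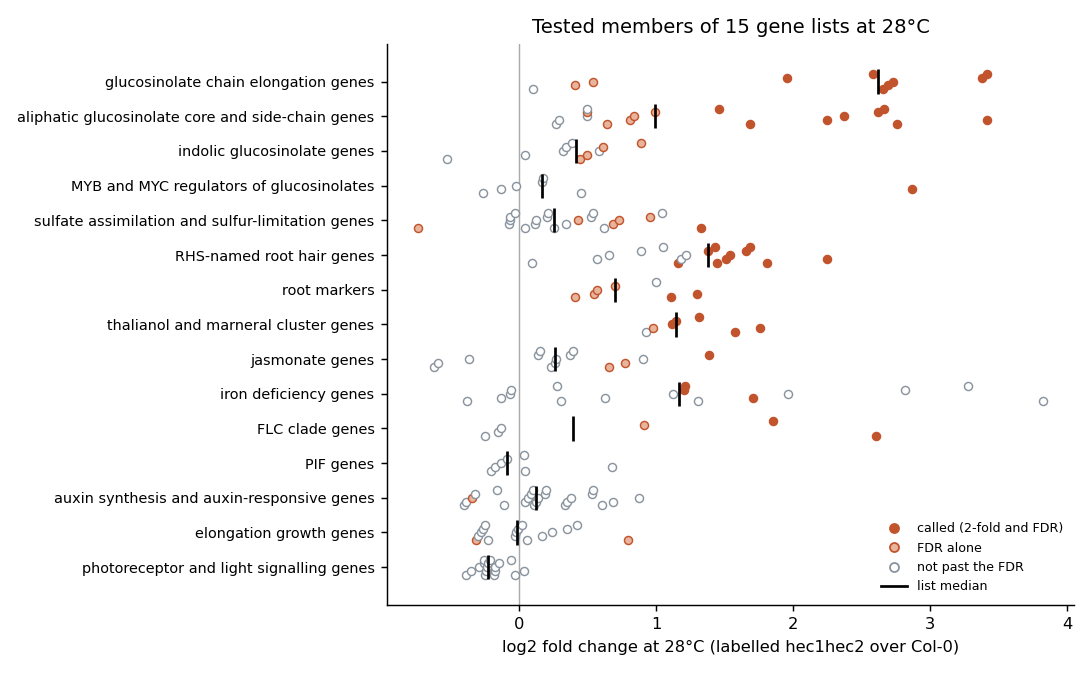
Log2 fold change at 28°C of every tested gene in 15 lists, labelled hec1hec2 over Col-0, with filled points for called genes, pale points for genes past the FDR alone and open points for the rest, and a bar at each list's median. The chain elongation list has the highest median (2.62) with 7 called genes, and the PIF, auxin, elongation growth and photoreceptor lists hold no called gene.

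Some of the other genes that rose are known from roots and root hairs. Of the 198 genes that rose, 23 were in the root hair, extensin and root marker lists, which together hold 83 genes. The root hair and extensin lists were drawn up after the called genes had been seen. Of 7 tested root markers LRX1, a root hair cell wall protein gene, and EXPA7, a root hair expansin gene, were called (1.3 and 1.11), 6 passed the FDR and all 7 estimates were positive, with a median of 0.70 (0.37 at 22°C). Among all tested genes 1.11% were called higher and 2.68% passed the FDR higher. PYK10, an abundant root glucosidase gene, had 10260, 8111 and 9865 counts in Col-0 and 13602, 13826 and 12179 in the labelled libraries (0.41, SE 0.08, FDR = 0.0017). The groups did not overlap, although the change was far from 2-fold. CASP1 and CASP2, genes of the endodermal barrier, passed the FDR at 0.55 and 0.57, and NRT2.1 was at 0 in all 6 libraries. Without Col-0 replicate 3, or without labelled hec1hec2 replicate 2, 3 root markers passed the FDR, and without both libraries none did and none was called by edgeR. EXPA7 lost its call in 8 of 18 alternatives.

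Further lists of this kind were drawn up after the called genes had been seen, so their counts are descriptions. They stand beside the 1.11% of all tested genes that were called higher. Of 19 genes named ROOT HAIR SPECIFIC, 17 were tested, 10 were called higher and all 17 estimates were positive, with a median of 1.38 (1.02 at 22°C). RHS19 had 51, 36 and 44 counts in Col-0 and 131, 195 and 121 in the labelled libraries (1.69, SE 0.26, FDR = 6.9e-05). RHS13 went from 81, 82 and 80 counts to 198, 304 and 195 (1.43, SE 0.22, FDR = 8.9e-05). In both genes labelled replicate 2 stood above its group, as it did in all 10 called genes of the list. Without that library 5 of the list were called, without Col-0 replicate 3 also 5, and without both 3. Extensin-named genes, for cell wall glycoproteins, gave 12 called of 39 tested, among them EXT6 (2.00), EXT10 (2.00) and EXT13 (1.92), and class III peroxidases 5 of 46, led by AT1G34510 with 16, 25 and 17 against 105, 145 and 77 counts (2.40, SE 0.29, FDR = 2.28e-06). Without both libraries 2 extensin genes and 3 peroxidase genes were called. Extensin genes are near-identical in part and their counts are uncertain.

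The thalianol and marneral gene clusters, which make root triterpenes, moved with these genes. All 7 listed genes were tested, 5 were called higher, against 1.11% of all tested genes, and the median was 1.14 (1.01 at 22°C). THAS1, the thalianol synthase gene, had 54, 50 and 36 counts in Col-0 and 121, 215 and 109 in the labelled libraries (1.57, SE 0.23, FDR = 5.22e-05), and MRN1, the marneral synthase gene, rose by 1.76. Labelled hec1hec2 replicate 2 was again the highest of its group in all 5. Without both libraries 1 gene, not 5, was called. The xyloglucan enzyme genes XTH12, XTH13, XTH14 and XTH26 (1.78, 1.95, 1.81 and 2.34), the phosphatidylinositol transfer gene COW1 (1.61), needed for root hair growth, and the actin depolymerizing factor genes ADF8 (1.32) and ADF11 (1.19) also rose and are named here after their values were seen.

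The summed level of the root markers was 2355, 2316 and 2148 CPM in Col-0 and 3237, 3244 and 2802 CPM in the labelled libraries, so the groups did not overlap. PYK10 alone made up 95.4% to 96.5% of each of these sums. The other 8 root markers summed to 83.9, 82.1 and 77.5 CPM in Col-0 and 132, 150 and 117 CPM in the labelled libraries, which did not overlap either. At 22°C the sums with PYK10 were 2558, 2710 and 2635 CPM against 2882, 2820 and 3017 CPM. The summed level of 18 antenna and Rubisco genes, which mark green tissue, was 95540, 93020 and 89090 CPM in Col-0 and 91180, 82330 and 90110 CPM in the labelled libraries, with overlap, and none of the 18 passed the FDR. The RHS sum was 90.6, 93.9 and 88.8 CPM in Col-0 and 189, 265 and 169 CPM in the labelled libraries. The part of root markers in the changes of the root hair, cell wall and triterpene genes was not tested. Of the aliphatic glucosinolate genes, labelled replicate 3, and not replicate 2, was the highest of its group in 11 of 15.

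**Figure D4:**
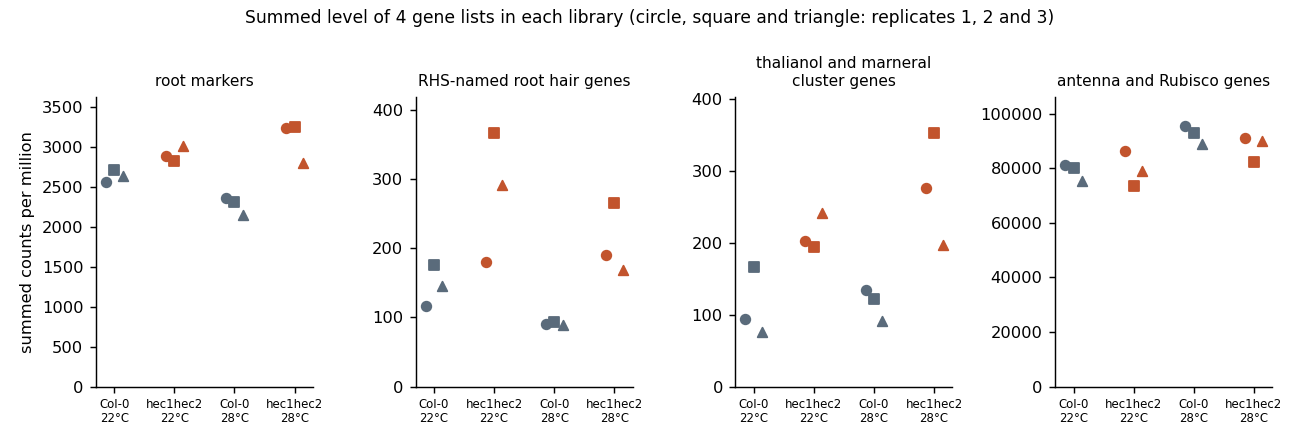
Summed level of 4 gene lists in each of 12 libraries, in CPM on axes that start at 0, by genotype and temperature, with circle, square and triangle for replicates 1, 2 and 3. At 28°C the root marker sum, nearly all of it PYK10, is 2148 to 2355 in Col-0 and 2802 to 3244 in the libraries labelled hec1hec2, whereas the antenna and Rubisco sums overlap.

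Floral repressors of the FLC clade, MADS-box genes that delay flowering, were higher in part. The list was drawn up after MAF4 and MAF5 had been seen among the called genes. MAF4 had 11, 7 and 7 counts in Col-0 and 43, 72 and 48 in the labelled libraries, which did not overlap, and rose by 2.60 (SE 0.30, FDR = 9.76e-07), with 2.45 (SE 0.29) at 22°C. MAF5, next to it on chromosome 5, went from 2, 4 and 5 counts to 13, 16 and 14 (1.85, SE 0.48, FDR = 0.0195), a call lost in 5 of 17 alternatives. FLC itself, with 96, 72 and 128 against 196, 180 and 211 counts, passed the FDR at 0.92 (SE 0.14, FDR = 6.09e-05), close to its 0.99 at 22°C. FLM, MAF2 (AT5G65050) and MAF3 had estimates of -0.15, -0.13 and -0.25 and did not pass it. SOC1, a flowering activator that FLC represses, had 30, 32 and 33 counts in Col-0 and 8, 9 and 19 in the labelled libraries, and fell by 1.48 on the log2 scale (SE 0.30, FDR = 0.00213).

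Seed and embryo transcripts did not share one pattern. Of 8 listed seed maturation markers 3 were tested, all 3 with positive estimates. OLEO2, an oil body protein gene, had 62, 42 and 42 counts in Col-0 and 118, 114 and 95 in the labelled libraries, and rose by 1.08 (SE 0.20, FDR = 0.0012). It was under 2-fold without Col-0 replicate 3 (0.91) or without labelled hec1hec2 replicate 1 (0.99). The storage protein genes had another pattern. SESA1 had 27, 1 and 0 counts in Col-0, SESA3 18, 0 and 3 and CRU3 21, 0 and 3, with 0 counts of all 3 genes in the labelled libraries, so that Col-0 replicate 1 held nearly all of them. CRA1, another storage protein gene, had 67, 23 and 18 against 54, 62 and 64 counts (0.66, FDR = 0.316). Among genes annotated as late embryogenesis abundant (LEA), a list drawn up after the calls were seen, 7 of 60 tested were called, all higher. The share of all tested genes called higher was 1.11%. LEA7 was among the 7, with 169, 142 and 114 against 384, 334 and 284 counts (1.15, SE 0.18, FDR = 0.000144). Without Col-0 replicate 3, 3 genes of the LEA list were called. AT1G04560, an AWPM-19-like membrane protein gene and another of those 10, had 28, 6 and 8 counts in Col-0 and 107, 94 and 79 in the labelled libraries (2.65, SE 0.30, FDR = 6.37e-07), and 0.25 at 22°C.

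Genes that fell were fewer and less uniform in known function. QQS, a gene without known relatives that affects starch content, had 94, 67 and 104 counts in Col-0 and 6, 4 and 8 in the labelled libraries. No labelled library came near a Col-0 library, and QQS fell by 3.93 on the log2 scale (SE 0.33, FDR = 3.67e-09), with -3.14 at 22°C. AT2G04050, a MATE-type efflux transporter gene, had 28, 37 and 30 counts in Col-0 and 3, 1 and 1 in the labelled libraries, the latter at or under the floor, and its log2 fold change was -4.24 (SE 0.61, FDR = 3.12e-05). Its neighbour DTX1, of the same transporter family, went from 21, 31 and 35 counts to 6, 9 and 11 (-1.81, SE 0.41), while AT2G04100 in the same row had overlapping groups (-0.39, FDR = 0.499). Reads of these related genes may not be fully separable.

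Enzymes of the cell wall were among the largest decreases. GH9B15, a glycosyl hydrolase gene, had 33, 15 and 20 counts in Col-0 and 1, 2 and 3 in the labelled libraries (-3.50, SE 0.49, FDR = 2.62e-05). PGAZAT, for a pectin-cleaving polygalacturonase, went from 78, 67 and 58 counts to 11, 14 and 9 (-2.66, SE 0.30, FDR = 9.76e-07), and ACC2, a plastid acetyl-CoA carboxylase gene, from 59, 49 and 62 to 12, 6 and 27 (-1.99, SE 0.29, FDR = 3.96e-05). In all 3 genes the groups were apart, which the rule that named them requires. AT2G21640, annotated as a marker of the oxidative stress response, had -2.33, AT2G18193, for a P-loop NTPase, -2.27, and AT4G26415 -1.73. Of a row of 5 glutaredoxin-like genes on chromosome 4, chosen after their values were seen, 3 fell, beside 0.23% of all tested genes. They were AT4G15660, AT4G15680 and AT4G15690 (by 1.62, 1.26 and 1.28 on the log2 scale). Without Col-0 replicate 3 only 1 of the row was called, AT4G15660 having an FDR of 0.16. These genes are similar in sequence and reads may have been shared among them. The amino acid catabolism genes BCAT-2 and THA1 fell by 1.29 and 1.04 on the log2 scale, and both fell at 22°C too.

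To see how far these differences belong to 28°C, the same contrast was read in the 22°C libraries, which are separate samples. At 22°C 209 genes were called (1.17%), 124 higher and 85 lower. Of them 71 were called at both temperatures, 29.7% of the 28°C calls and 34.0% of the 22°C calls, and 70 had the same direction, 56 higher and 14 lower. Among the 198 genes that rose at 28°C, 191 (96.5%) had a positive estimate at 22°C, and among the 41 that fell 38 (92.7%) a negative one, beside 49.7% positive and 50.3% negative among all tested genes. The median log2 fold change at 22°C was 0.81 for the former and -0.80 for the latter. The gene with opposite calls at the temperatures was AT5G23240, for a chaperone of the DnaJ type, which had 26, 21 and 15 counts in Col-0 and 53, 53 and 73 in the labelled libraries at 28°C. At 22°C the order was turned, with 51, 56 and 59 counts in Col-0 and 32, 17 and 27 in the labelled libraries.

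**Figure D5:**
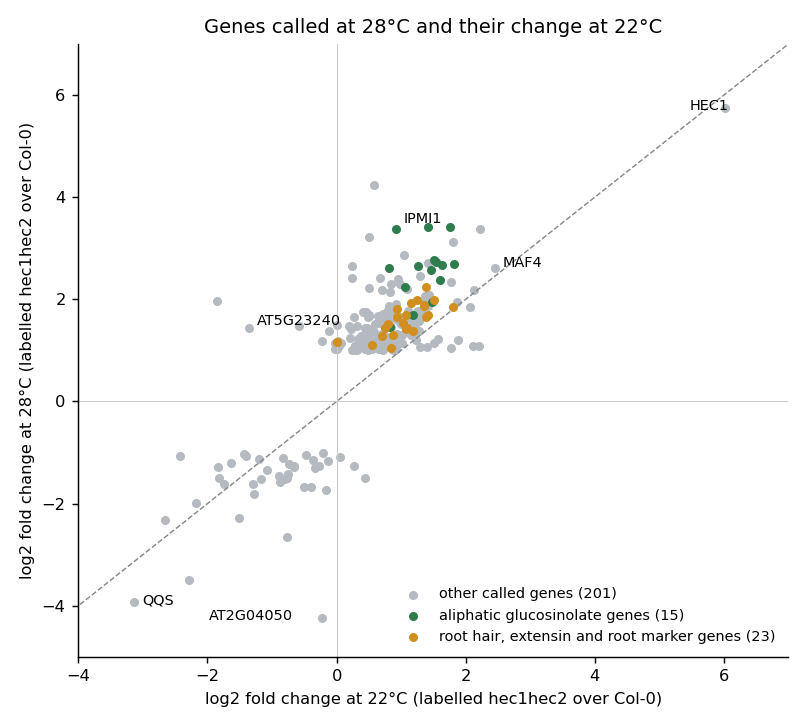
Log2 fold change of the 239 genes called at 28°C (vertical axis) against their log2 fold change at 22°C (horizontal axis), labelled hec1hec2 over Col-0, with a dashed line of equal change and with aliphatic glucosinolate genes and root hair, extensin and root marker genes in colour. Of the 198 genes that rose, 191 lie right of 0, the 15 glucosinolate genes lie above the line, and AT5G23240 lies in the quadrant of opposite change. The 15 were picked by their call at 28°C, which favours a place above the line. Of them IPMI1 alone passed the interaction test in the model without a replicate block.

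The difference between the temperatures was itself tested by the interaction of genotype and temperature. It was called for 24 genes (0.135%), 16 with a larger and 8 with a smaller value at 28°C, and 5 of these were among the 239 genes called at 28°C. With the replicate number as a block it was called for 38 genes, which included all 24. The 5 genes also called at 28°C were IPMI1 (2.47, SE 0.39, FDR = 0.00208), AT5G23240 (2.79, SE 0.33, FDR = 1.57e-05), CB5-C, a cytochrome b5 gene (1.32, SE 0.28, FDR = 0.0257), AT2G04050 (-4.02, SE 0.71, FDR = 0.00466) and PGAZAT (-1.89, SE 0.43, FDR = 0.0454). IPMI1 had 55, 45 and 60 counts in Col-0 and 175, 91 and 92 in the labelled libraries at 22°C, so that its Col-0 level was lower at 28°C. No other aliphatic glucosinolate gene passed this test in the model without the block, IMD1 being nearest (1.40, SE 0.34, FDR = 0.0743).

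The other lists held few or no called genes. None was called among 11 tested HLH inhibitors and atypical HLH genes, 8 cytokinin response genes, 9 salicylic acid and immunity genes, 10 heat shock genes, 8 cold-regulated genes or 6 guard cell and stomatal lineage markers, by edgeR or DESeq2, and COR413IM1 of the cold list alone passed the FDR (0.59). At an unadjusted p below 0.05, for which no share over all tested genes was counted, there were 1, 2, 1, 0, 1 and 4 genes in these lists, in that order. The 4 were of the guard cell and stomatal list, whose summed level was 36.6 to 42.1 CPM in Col-0 and 28.7 to 31.7 CPM in the labelled libraries, a list median of -0.58 (0.04 at 22°C). Of 14 tested clock genes none was called. LNK2, a coactivator of clock genes, had 716, 754 and 1075 counts in Col-0 and 458, 447 and 594 in the labelled libraries (-0.84, SE 0.12, FDR = 1.71e-05), and CCA1 had -0.75 (SE 0.17, FDR = 0.00622), both short of 2-fold. Of 20 tested flavonoid genes LDOX, for a late step of anthocyanin synthesis, was called on 2, 1 and 1 against 7, 14 and 9 counts (2.72, SE 0.67, FDR = 0.0131). LDOX lost its call without Col-0 replicate 3, without labelled hec1hec2 replicate 2, without both (FDR = 0.307) and with all 18 libraries. With the 6 compared libraries alone 10 flavonoid genes were tested and none was called. MYBL2, a repressor of the pathway, passed the FDR at -0.50, with -1.66 at 22°C. The flavonoid list median was 0.29, and 0.569 at 22°C, where 6 genes were called higher and 1 lower. Of 2 tested floral organ markers PISTILLATA (PI) was called, with 21, 15 and 55 against 8, 12 and 18 counts (-1.31, FDR = 0.0325). That call was lost without Col-0 replicate 3 (-0.66, FDR = 0.518), and the adjacent gene BCB also fell (-1.53).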

How the data were processed

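Whole seedlings were profiled by 3′ Tag-Seq. Per the labels, the study's methods and the submitters' processing notes, the authors used FastQC on the reads, TopHat and Bowtie2 to align them, HTSeq to count and TAIR10 as reference, with versions and strand setting not given in the sources used here. The deposited values are raw counts per gene without normalization, and overlapping, antisense or near-identical genes may share reads. Groups came from the sample labels. Where the labels do not say that replicates were separate cultures, p-values measure only the spread between these samples.

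From the counts, edgeR 4.0.16 (R 4.3.3) was run with TMM normalization, filterByExpr by group (15827 genes left out) and one quasi-likelihood model of 4 groups over 12 libraries, with no covariate. The biological coefficient of variation was 0.0883. The study names edgeR and the cutoffs of 2-fold and FDR 0.05. SEs are the log2 fold change over the square root of F. The 6 libraries of the mutant pifQ entered alternatives only. No pair of replicates agreed within sampling noise. Alternatives were RLE and upper quartile normalization, DESeq2 1.42.0, other filters, other sets of libraries, a replicate block, a 1.2-fold threshold, thinned counts, the FDR alone and each replicate left out. The comparison, members and gene lists were chosen with earlier results of these data known. Genes named were HEC genes and those the study names, the 10 largest changes in each direction among called genes with groups apart and at least 20 counts on average in the higher group, called list members, up to 4 further list members by FDR, and the 3 largest interaction values each way. Others are said to be named after their values were seen. Symbols follow RefSeq TAIR10.1 and common use, and RefSeq coordinates are left out since the authors counted on TAIR10. The values of 1 root marker are not reported here.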

Additional observations from a re-analysis of the deposited data

Results flagged for a closer look

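In 24 genes the difference between the labelled hec1hec2 libraries and Col-0 was not the same at 28°C as at 22°C by edgeR's interaction test (2-fold and FDR). Values are the log2 fold change at 28°C minus that at 22°C.

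Larger at 28°C were AT5G23240 (2.79), AT2G47780, a rubber elongation factor-like gene (2.61), IPMI1 (2.47), AT1G07050 (1.57), ORP4C (1.55), COR27 (1.53), AT3G62550 (1.44), AT5G62360 (1.42), AT1G07985 (1.39), CB5-C (1.32), CCL (1.29), Fes1B (1.27), AT4G30650 (1.13), ICL (1.12), SEN1 (1.11) and PRR7 (1.05). In several of these the larger change was the one at 22°C. ICL, isocitrate lyase of the glyoxylate cycle, had 1251, 1025 and 1950 counts in Col-0 and 880, 656 and 770 in the labelled libraries at 28°C, which did not overlap (-0.93), and -2.05 at 22°C. AT2G47780 had 21, 24 and 31 against 17, 8 and 30 counts at 28°C, with overlap, and 28, 34 and 32 against 4, 6 and 2 at 22°C. PRR7, a clock repressor, was at -0.37 at 28°C (FDR = 0.0534) and -1.42 at 22°C.

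Lower in signed value at 28°C were AT2G04050 (-4.02), PGAZAT (-1.89) and the low-sulfur response genes SDI1 (-1.78) and LSU1 (-1.44). So were BETA-OHASE 2, a carotenoid hydroxylase gene (-1.51), AT3G28220 (-1.36), GBSS1, a starch synthase gene (-1.08), and RUP2, a repressor of UV-B signalling (-1.02). AT2G04050 and PGAZAT fell at 28°C, and their decrease was larger at 28°C than at 22°C. SDI1 had 25, 24 and 23 counts in Col-0 and 24, 42 and 31 in the labelled libraries at 28°C, against 39, 45 and 38 and 286, 216 and 128 at 22°C. The SDI1 groups overlapped at 28°C and were apart at 22°C, where the log2 fold change was 2.12.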

How the results depend on the processing

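The 239 calls at 28°C came to 782 by the FDR alone, 156 with all 18 libraries and 84 without both Col-0 replicate 3 and labelled hec1hec2 replicate 2 (a setting chosen after the data were seen), and to 136 to 308 with each replicate left out, lowest without Col-0 replicate 3 and highest without Col-0 replicate 1. The 209 calls at 22°C came to 723 by the FDR alone and 158 to 217 with each replicate left out. The 24 interaction calls came to 52 by the FDR alone, 57 without a filter, 3 with all 18 libraries and 16 to 30 with each replicate left out. All other alternatives except the replicate block in the interaction stayed within 1.5 times of these counts (DESeq2 gave 165, 158 and 21). HEC1 kept its direction and call under every alternative, at 5.55 to 5.91 with each replicate left out. Estimates that did not pass the FDR changed sign with replicates left out for PIF4 (-0.058 without labelled hec1hec2 replicate 3 to 0.173 without replicate 2), PIF7 (-0.325 without labelled hec1hec2 replicate 1 to 0.079 without replicate 2, and 0.22 without both libraries above) and PHYB (-0.375 without Col-0 replicate 1 to 0.011 without Col-0 replicate 3). Of 41 called genes named by rule, HEC1 set apart, 24 kept direction and call under every alternative, and 0 of 735 values were reversed. Genes named only from lists drawn up later, or after their values were seen, were not among the 41. The causes were not tested.

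Deviations of same-numbered libraries correlated at 0.103, 0.0887 and 0.112 at 28°C over 11414 genes, not all above 0.1, and at 0.315, 0.133 and 0.109 at 22°C, all above it. The numbers were therefore not taken as pairs at 28°C, where each library still correlated best with its own number, while at 22°C they meet that mark. The replicate block gave 262 calls at 28°C, 231 at 22°C and 38 in the interaction. Values given gene by gene at 22°C and for the interaction are from the model without the block. With 3 libraries a genotype, genes with a few counts, such as HEC2, MYB76 and PIL1, could not be tested.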

Other observations

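Iron deficiency genes were higher in part. Of 16 tested genes, 3 were called, all higher, against 1.11% of all tested genes. They were IMA2 and IMA3, small peptides of the iron response (1.71 and 1.2), and F6'H1, an enzyme of coumarin synthesis (1.21). The list median was 1.16 (0.48 at 22°C). With the 6 compared libraries alone 11 genes were tested and the median was 0.31, and the summed level of the list was 252 to 269 CPM in Col-0 and 278 to 282 CPM in the labelled libraries. IMA2 had 13, 11 and 10 counts in Col-0 and 60, 24 and 34 in the labelled hec1hec2 libraries. The groups did not overlap, but none of the 3 was called without Col-0 replicate 3 or with all 18 libraries. IRT1, the iron transporter of the root, had 1, 0 and 0 counts in Col-0 and 7, 7 and 6 in the labelled libraries, and was not called (FDR = 0.109). At 22°C the counts of IRT1 were 12, 2 and 53 in Col-0 and 87, 96 and 77 in the labelled libraries (1.75, FDR = 0.00281, edgeR's quasi-likelihood test).

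In jasmonate synthesis, LOX2, the lipoxygenase of the plastid pathway, had 76, 77 and 50 counts in Col-0 and 182, 199 and 186 in the labelled libraries, and rose by 1.39 (SE 0.17, FDR = 4.28e-06), with 1.25 at 22°C. AOS and AOC2, the following enzymes, passed the FDR at 0.77 and 0.66. The JAZ repressor genes did not rise with them, since JAZ1, JAZ2, JAZ6, JAZ9 and JAZ10 lay between -0.62 and 0.26 and none of them passed the FDR. Over the 14 tested jasmonate genes the median was 0.265, and 0.662 at 22°C, where 6 were called higher. The suberin genes GPAT5 (1.02), FAR4 (1.02) and FACT (1.06) were called higher and are named after their values were seen.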
